A study of Mus musculus with 6 samples.

Results

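The mouse mitochondrial genome carries 37 annotated genes, and all of them were taken from the count table by their symbols, which begin with mt-. They make up 37 of the 52636 genes of the table, and 445929 of its 28002465 UMIs (1.59%) were counted on them. Of these genes, 13 encode subunits of the respiratory chain, 2 encode ribosomal RNAs and 22 encode tRNAs. At least 1 UMI was found for 36 of them. The exception was the tRNA gene mt-Ty with 0 UMIs, and a count of 0 allows up to 3 UMIs in the whole table.

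Retinas of 12-month-old male C57BL/6J mice were dissociated with papain and profiled with the 10x Genomics 3′ v2 kit, which captures polyadenylated RNA and counts molecules by unique molecular identifiers (UMIs). Single-cell RNA sequencing was performed on 3 Dram2 wt/wt and 3 Dram2 ko/ko retinas, and the comparison of the genotypes asks how the retina responds to the loss of Dram2, a gene of a transmembrane protein linked to autophagy. The ko allele is a constitutive deletion of exon 4 made with CRISPR/Cas9, so that every cell of a ko/ko mouse carries it, and other exons of the gene are still counted. Replicate 3 of each genotype belonged to batch 1 and replicates 1 and 2 of each genotype to batch 2, as the labels name them. The protocol text speaks of 1 library per genotype and the design text of choroid, whereas the sample labels name 3 retinas of each genotype, and the sample labels were followed. The labels do not say whether the retinas of a genotype came from separate litters, so p-values measure the spread between these 6 libraries.

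Depth was 3463728 to 6563762 UMIs and 7014 to 9242 cells per retina. Of the 57 marker genes of the 5 cell types named by the authors, 52 were highest in their own type. Exceptions were Pax6 in interneurons, Clu in glia, Dcn and Col1a1 in mesenchymal cells and Best1 in RPE cells. The mesenchymal cluster was led by markers of microglia, endothelium and pericytes, while the fibroblast markers Dcn and Col1a1 were near 0. Dram2 itself stood at 27.8, 34.8 and 56.0 CPM (UMIs scaled to a total of 1000000) in wt/wt replicates 1, 2 and 3 and at 27.4, 34.0 and 53.5 CPM in the same ko/ko replicates, so its counts do not check the genotype labels.

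Mitochondrial DNA is transcribed from both strands as long precursors. The tRNA genes sit between most of the protein-coding and ribosomal genes, and cutting out the tRNAs releases the mRNAs and rRNAs, most of which then receive a short poly(A) tail. The encoded proteins are core subunits of complexes I, III, IV and V of oxidative phosphorylation, and all other subunits come from nuclear genes. Photoreceptors pack mitochondria densely into their inner segments. In single-cell data a high mitochondrial share is widely used as a sign of damaged cells.

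The junctions of 4 tRNA genes with the genes directly before them are shown first, because UMIs were counted on both sides of each. They were read from the GENCODE M21 transcripts (GRCm38), run 5′ to 3′ on the heavy-strand coding sense, and hold the last bases of the earlier gene in lower case and the tRNA gene in capitals.
mt-Nd1 into mt-Ti (chrM:3676-3774): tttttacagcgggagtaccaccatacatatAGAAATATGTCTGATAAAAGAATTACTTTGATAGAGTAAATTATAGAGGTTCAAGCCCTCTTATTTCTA
mt-Nd2 into mt-Tw (chrM:4920-5016): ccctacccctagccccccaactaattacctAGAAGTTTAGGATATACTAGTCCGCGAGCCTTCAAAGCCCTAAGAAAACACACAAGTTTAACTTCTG
mt-Cytb into mt-Tt (chrM:15259-15355): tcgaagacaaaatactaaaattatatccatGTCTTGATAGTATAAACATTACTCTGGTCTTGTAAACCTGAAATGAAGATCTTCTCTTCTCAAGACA
mt-Rnr1 into mt-Tv (chrM:995-1093): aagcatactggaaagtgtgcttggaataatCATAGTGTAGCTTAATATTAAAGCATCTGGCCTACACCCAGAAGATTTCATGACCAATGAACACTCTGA
In the annotation, mt-Nd1 shares 2 bases with mt-Ti and mt-Nd2 shares 2 bases with mt-Tw. No base is shared at the other junctions shown.

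The second set of sequences compares 2 mitochondrial genes with their copies in the nuclear genome, because these copies also carried UMIs. The first 120 bases of mt-Nd3 (chrM:9459-9578) and of its copy Gm28438 (chr1:24613000-24613119, minus strand) differ by the substitution T3C, counted from the first base of mt-Nd3, whose base comes first. That base is in capitals.
mt-Nd3: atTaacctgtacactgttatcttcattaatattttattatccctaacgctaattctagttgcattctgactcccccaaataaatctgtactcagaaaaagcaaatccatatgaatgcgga
Gm28438: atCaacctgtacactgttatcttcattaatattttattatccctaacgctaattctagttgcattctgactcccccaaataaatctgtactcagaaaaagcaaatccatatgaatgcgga
Toward the 3′ end of mt-Atp6 (chrM:8485-8604) and of its copy Gm10925 (chr1:24613974-24614093, minus strand), where a 3′ kit counts most molecules, the 120 bases shown are the same in both.
mt-Atp6: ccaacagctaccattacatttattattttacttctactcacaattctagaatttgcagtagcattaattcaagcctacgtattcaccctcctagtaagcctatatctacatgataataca
Gm10925: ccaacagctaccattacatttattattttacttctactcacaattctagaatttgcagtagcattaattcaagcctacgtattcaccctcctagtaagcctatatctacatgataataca
The last 100 bases of mt-Nd4 (chrM:11445-11544) lie outside its nuclear copy, and they are shown as the contrasting case.
mt-Nd4: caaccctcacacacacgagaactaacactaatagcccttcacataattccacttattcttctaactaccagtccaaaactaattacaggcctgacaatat

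UMIs were very unevenly spread over the 37 genes. The 3 leading genes together held 67.3% of the mitochondrial UMIs, pooled over retinas as are all counts in this paragraph. Ranks differed between retinas, and in ko/ko replicate 1 mt-Co3 (3263 UMIs) stood above mt-Nd4 (2833 UMIs). No nuclear copy was found for mt-Cytb and mt-Nd1, and 502 bases of the 3′ end of mt-Nd4 lie outside its copy. UMIs on near-identical copies, such as 32298 on that of mt-Co3, are not in these counts. Reads that fit a gene and its copy alike may be missing as well, so the ranks of genes with such a copy are uncertain. The single complex III gene mt-Cytb, which encodes cytochrome b, had 149852 UMIs (33.6%). The 7 complex I genes held 40.4%, most of it on mt-Nd1 with 91696 UMIs and mt-Nd4 with 58752 UMIs. The complex I genes mt-Nd2 (18528 UMIs) and mt-Nd5 (8781 UMIs) were of middle rank, while mt-Nd6, mt-Nd3 and mt-Nd4l had 971, 742 and 518 UMIs. The 3 complex IV genes, which encode the catalytic core of cytochrome c oxidase, held 15.8% on mt-Co3 (34005 UMIs), mt-Co1 (27374 UMIs) and mt-Co2 (9174 UMIs). The complex V genes also differed widely, with 23315 UMIs on mt-Atp6 and 98 UMIs on mt-Atp8, although their frames overlap by 43 bases on the same strand. These numbers count captured 3′ ends and are not levels per length.

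The ribosomal genes mt-Rnr2 and mt-Rnr1 had 7573 and 1148 UMIs, and the 22 tRNA genes held 3.01% of the mitochondrial UMIs pooled over the retinas. By retina the tRNA genes held 2.29% and 2.80% in batch 1 and 4.67% to 5.54% in batch 2. Most tRNA UMIs fell on mt-Ti (9102 UMIs), which directly follows mt-Nd1. Next came mt-Tt after mt-Cytb (1375 UMIs), mt-Tw after mt-Nd2 (979 UMIs), mt-Tm (446 UMIs) and mt-Tl1 after mt-Rnr2 (347 UMIs). The other 8 tRNA genes with at least 50 UMIs, which are mt-Tg, mt-Tc, mt-Tp, mt-Th, mt-Tv, mt-Tl2, mt-Td and mt-Ts2, had between 66 and 218 UMIs. The remaining 9 tRNA genes had 0 to 49 UMIs. Of the 37 genes, 28 are annotated on the heavy-strand coding sense and 9 on the light-strand sense, and the 9 held 0.315% of the mitochondrial UMIs, mainly on mt-Nd6, the only protein-coding gene among them.

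To ask how the share of UMIs on these genes varied over the study, it was computed per retina and cell type. In photoreceptors it was 3.24% for wt/wt and 2.71% for ko/ko in batch 1, and 0.361%, 0.398%, 0.698% and 0.541% in wt/wt replicates 1 and 2 and ko/ko replicates 1 and 2 of batch 2. The same order, wt/wt before ko/ko, is used for all values by batch. In interneurons it was 3.74% and 3.39% in batch 1 against 0.843%, 0.878%, 1.28% and 0.971% in batch 2. Both retinas of batch 1 lay above all 4 of batch 2 in each of these types.

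In glia the share was 1.86% and 1.45% in batch 1 and 0.222% to 0.389% in batch 2. In mesenchymal cells it was 1.77% and 1.44% against 0.292% to 0.393%. RPE cells, with 10 to 25 cells and 39 to 427 mitochondrial UMIs per retina, gave 1.19% and 1.18% against 0.147% to 0.291%. The ratio of the batch means was 5.95 in photoreceptors, 5.68 in glia, 5.06 in RPE cells, 4.90 in mesenchymal cells and 3.59 in interneurons. The exact two-sided permutation test over the retinas gave p = 0.0667 in each type and over all cells, which is the smallest p that 2 retinas against 4 can reach. Within wt/wt retinas the ratio over all cells was 7.64 and within ko/ko retinas it was 4.25.

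**Figure D1:**
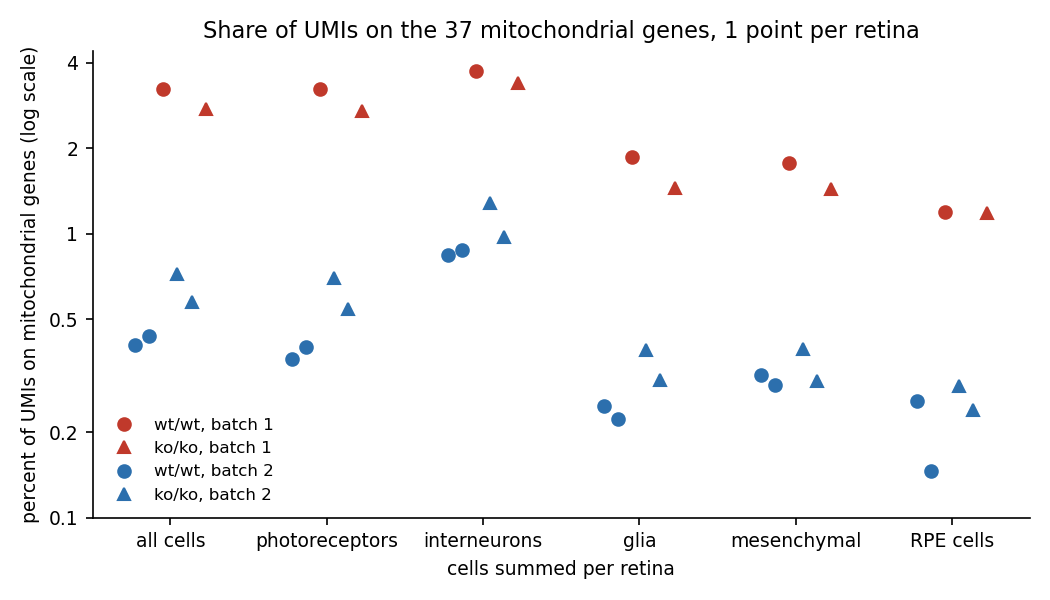
Share of UMIs on the 37 mitochondrial genes (percent, log axis) in each cell type and over all cells, 1 point per retina, with red for batch 1 and blue for batch 2, circles for wt/wt and triangles for ko/ko. In every cell type the 2 retinas of batch 1 lie above the 4 of batch 2, by 3.59 times on average in interneurons and 5.95 times in photoreceptors.

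The libraries of batch 1 stood apart in other measures as well. Depth was 5655903 and 6563762 UMIs in batch 1 and 3463728 to 4380401 UMIs in batch 2. The median cell held 609 and 550 UMIs against 406 to 444 UMIs. Photoreceptors thinned to equal depth are described below. Malat1, a nuclear RNA, took 7.91% and 9.89% of the UMIs in batch 1 and 11.3% to 16.4% in batch 2. Summed markers of interneurons were at 1835 and 1854 CPM in batch 1 and at 1086 to 1430 CPM in batch 2, and 6 of 13 passed the test as higher, none as lower. Those of glia were at 5700 and 4468 CPM against 2399 to 4240 CPM, without overlap, and none of the 9 passed. None of the 14 photoreceptor markers passed. Those of the mesenchymal type were at 380 and 226 CPM against 408 to 529 CPM, with 3 of 9 tested lower, and those of RPE cells at 685 and 336 CPM against 742 to 881 CPM, with 1 of 7 lower. Genes induced by dissociation were at 354 and 377 CPM against 459 to 519 CPM, with 1 of 8 higher and 2 lower. Haemoglobin and other blood genes were at 1421 and 847 CPM against 791 to 1726 CPM, and none of the 4 tested passed. Over all genes 8.57% were called higher in batch 1 and 6.62% lower, and these short lists are to be read against those shares. The batch difference in the share was present within each cell type, and markers moved with the batch within each type as well. The part of the Malat1 and marker differences in the results by batch was not tested.

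Gene by gene, most of the highly counted mitochondrial genes were higher in batch 1, but not all of them were, and the size differed between genes. Over all cells, edgeR's quasi-likelihood test with genotype as a second term called 16 of the 29 genes tested as higher in batch 1 (adjusted p under 0.05), where 8.57% of all 16297 genes were called higher. The tRNA gene mt-Tm was called lower, where 6.62% of all genes were. The median log2 difference of the 29 genes was 1.58, against -0.03 over all genes. Without wt/wt replicate 3, one of the 2 retinas of batch 1, the test called 9 mitochondrial genes and 0.891% of all genes.

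Of the complex I genes, mt-Nd1 was at 6979 and 6213 CPM in batch 1 and at 543, 559, 1021 and 805 CPM in batch 2. This is a log2 difference of 3.20 ± 0.21 (SE, edgeR, adjusted p = 0.00083). mt-Nd3 was at 83.6 and 26.7 CPM against 3.57, 4.73, 10.1 and 5.94 CPM, a log2 difference of 3.05 ± 0.48 (adjusted p = 0.0082). The 2 retinas of batch 1 were far apart, and the call was lost without wt/wt replicate 2 (adjusted p = 0.054) or wt/wt replicate 3 (adjusted p = 0.084). mt-Nd4 was at 4303 and 3622 CPM against 546 to 818 CPM and mt-Nd2 at 1410 and 1119 CPM against 161 to 239 CPM, with log2 differences of 2.56 ± 0.18 and 2.61 ± 0.18. mt-Nd5 rose by 1.98 ± 0.22 on the log2 scale.

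The counts of the other 2 complex I genes did not follow. mt-Nd4l lies directly upstream of mt-Nd4 and shares 7 bases with it on the same strand. A 3′ kit counts mainly the end of an RNA, so UMIs on mt-Nd4l may not measure an RNA that spans both genes. mt-Nd4l was at 25.6 and 13.3 CPM in batch 1 and at 18.1, 18.7, 9.53 and 24.4 CPM in batch 2, and its groups overlapped (log2 difference 0.05 ± 0.34, adjusted p = 0.94). mt-Nd6, which lies on the opposite strand from the other mRNA genes, was at 20.5 and 19.96 CPM in batch 1 and at 51.8, 57.7, 15.9 and 53.4 CPM in batch 2. Of the 4 retinas of batch 2, ko/ko replicate 1 was at the level of batch 1 and the other 3 were above it. The log2 difference of mt-Nd6 was -1.14 ± 0.41, which missed the threshold (adjusted p = 0.099), and it passed without ko/ko replicate 1 (-1.45, adjusted p = 1.1e-05), with DESeq2 (adjusted p = 0.030) and without the filter on low counts (adjusted p = 0.035). It was at -0.75 without ko/ko replicate 2 (adjusted p = 0.27) and at -0.80 without wt/wt replicate 3 (adjusted p = 0.53).

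The complex III gene mt-Cytb was at 10513 and 9464 CPM in batch 1 and at 1289, 1451, 2520 and 1978 CPM in batch 2, a log2 difference of 2.49 ± 0.21 (adjusted p = 0.00087). The complex IV genes were spread more widely. mt-Co2 was at 693 and 540 CPM against 88.6 to 144 CPM (2.49 ± 0.20), and mt-Co3 at 2381 and 1862 CPM against 324, 424, 942 and 474 CPM (2.04 ± 0.33). mt-Co1, the gene of the subunit that reduces oxygen, was at 1843 and 1330 CPM against 402, 498, 679 and 523 CPM (1.58 ± 0.21). All 3 passed the test. mt-Co1 lost the call without wt/wt replicate 3 (adjusted p = 0.066), and mt-Co3 lost it without wt/wt replicate 2 (0.055) or wt/wt replicate 3 (0.11).

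The highest ratio of batch 1 to batch 2 among the 28 named genes was that of mt-Atp6, a subunit of the proton channel of complex V. It was at 2004 and 1536 CPM in batch 1 and at 90.4, 88.3, 214 and 102 CPM in batch 2, a ratio of 14.3 between the batch means and a log2 difference of 3.89 ± 0.32 (adjusted p = 0.00087). mt-Atp8, whose frame begins upstream and runs into that of mt-Atp6, was at 6.54 and 1.68 CPM against 3.32, 2.49, 3.46 and 3.42 CPM, and its groups overlapped (log2 difference 0.20 ± 0.51). Since a 3′ kit counts mainly the end of an RNA, UMIs on mt-Atp8 may not measure an RNA that spans both genes. With both genes, complex V took 6.25% and 5.59% of the mitochondrial UMIs in batch 1 and 1.85% to 3.02% in batch 2. Complex IV took 15.3% and 13.6% against 19.3% to 24.5%.

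The pair of rRNA genes differed from each other. mt-Rnr2, the large-subunit rRNA, was at 535 and 430 CPM in batch 1 and at 117, 89.8, 105 and 122.8 CPM in batch 2 (log2 difference 2.12 ± 0.16, adjusted p = 0.00083). mt-Rnr1, the small-subunit rRNA, was at 54.3 and 46.8 CPM against 35.5, 28.4, 26.6 and 43.1 CPM. Its groups did not overlap, yet the log2 difference of 0.56 ± 0.21 missed the threshold (adjusted p = 0.11). It passed without ko/ko replicate 1 (0.034) or ko/ko replicate 2 (0.0498).

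Of the tRNA genes, 5 rose in batch 1. These were mt-Tl1 (2.76 ± 0.41), mt-Tw (2.39 ± 0.19), mt-Th (2.37 ± 0.43), mt-Ti (1.73 ± 0.21) and mt-Tt (1.45 ± 0.28). Each of them directly follows a gene that rose. The kit captures polyadenylated RNA, so their UMIs may come in part from RNA of the gene before and need not measure the tRNAs. This was not tested. mt-Tm, which is preceded by a light-strand tRNA gene and followed by mt-Nd2, was at 11.5 and 7.47 CPM in batch 1 and at 19.9, 17.7, 21.1 and 25.1 CPM in batch 2 (log2 difference -1.18 ± 0.25, adjusted p = 0.022). mt-Tv, which follows mt-Rnr1, was at 1.94 and 1.83 CPM against 6.38, 2.74, 2.60 and 6.85 CPM (-1.33 ± 0.54, adjusted p = 0.13), and it passed without ko/ko replicate 1 (-1.57, adjusted p = 0.013). mt-Tg after mt-Co3 (1.35 ± 0.46, adjusted p = 0.081) passed without the filter (0.022) and without ko/ko replicate 1 (0.0016), and was at 0.69 without wt/wt replicate 3 (0.59). mt-Tg was at 2.08 without ko/ko replicate 3 (0.11). The calls of mt-Ti and mt-Tl1 were lost without wt/wt replicate 3 (0.058 and 0.10). Those of mt-Tm, mt-Tt and mt-Th were lost without any of the 3 wt/wt replicates or without ko/ko replicate 3, and that of mt-Tm also without ko/ko replicate 2, at adjusted p between 0.0501 and 0.21.

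Over all 37 genes, the CPM of batch 1 lay wholly above batch 2 for 18, wholly below for 6, and overlapped for 13. The 6 below include mt-Tq, mt-Ta and mt-Ts2 with 49, 43 and 66 UMIs. The same count was not made over all genes, so these numbers are a description and not a trait of the mitochondrial genes. The light-strand genes together took 0.115% and 0.126% of the mitochondrial UMIs in batch 1 and 1.60%, 1.67%, 0.401% and 1.28% in batch 2. The lowest of these 4 values was again that of ko/ko replicate 1.

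**Figure D2:**
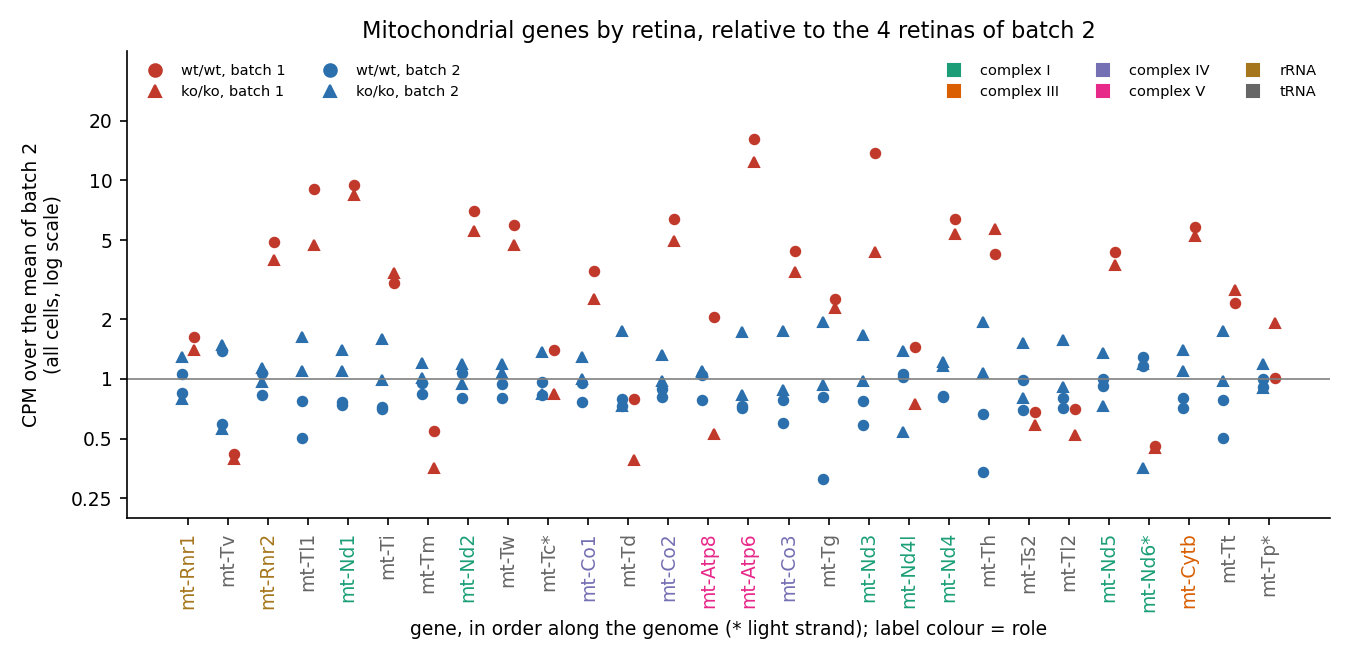
CPM of each of the 28 named mitochondrial genes in each retina over the mean of the 4 retinas of batch 2 (all cells, log axis), in genome order, with labels coloured by role and light-strand genes starred. Red points are the retinas of batch 1 and blue those of batch 2, circles wt/wt and triangles ko/ko. Both red points of mt-Atp6 stand far above the blue ones (ratio of the means 14.3), those of mt-Nd4l lie among them, and those of mt-Tm and mt-Tv lie below.

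The 5 cell types were fitted separately as well. In photoreceptors 16 of 26 genes tested were higher in batch 1 and 1 lower, where 2.39% and 3.11% of all genes were called in those directions. In interneurons 13 of 18 were higher and 2 lower, against 4.8% and 7.65% of all genes. In glia and in mesenchymal cells all 11 genes tested were higher, against 1.44% and 1.38% of all genes, and in RPE cells 4 of 5 were, against 3.43%. The genes tested in the smaller types are those with enough UMIs, among which mt-Nd6 and mt-Tm were not. A gene entered these fits if 2 retinas reached the filter's level, so a gene high in batch 1 could enter through that batch alone and its direction was then set by the filter. That may hold for mt-Th in photoreceptors, mt-Nd3 in interneurons, mt-Co2 and mt-Nd5 in mesenchymal cells and mt-Co3 in RPE cells. Of the genes that also passed the filter for groups of 3 retinas, 15 of 23 were higher in photoreceptors, 12 of 17 in interneurons, 11 of 11 in glia, 9 of 9 in mesenchymal cells and 3 of 4 in RPE cells. Without a filter on low counts 0 were called in RPE cells. In photoreceptors 2 of 11 interneuron markers were higher in batch 1, Tfap2b (3.15) and Pax6 (2.19), and of 8 dissociation genes Hspa1b was higher (1.48) and Atf3 lower (-0.88). In the 3 smaller types photoreceptor markers moved with the batch as well, with 2 called higher of 13 tested in glia, 2 of 13 in mesenchymal cells and 2 of 8 in RPE cells, and none lower. They were Pdc and Sag, with log2 differences of 0.84 and 0.73 in glia, 1.30 and 1.01 in mesenchymal cells and 1.15 and 0.92 in RPE cells. In mesenchymal cells 1 of 4 glial markers was lower, Apoe (-3.11), the summed glial markers being at 1864 and 2132 CPM in batch 1 and at 1750 to 12011 CPM in batch 2, and blood genes were at 7268 CPM in ko/ko replicate 2 and at most at 51.2 CPM in the other retinas. In RPE cells 2 of 6 RPE markers passed, Lrat as higher (1.35) and Dct as lower (-1.62). The part of these genes in the results by type was not tested. In photoreceptors the test called 8 mitochondrial genes without wt/wt replicate 1, 9 without wt/wt replicate 2 and 8 without wt/wt replicate 3, where 0.311%, 0.392% and 0.139% of all genes were called.

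In interneurons mt-Nd6 was at 28.4 and 25.9 CPM in batch 1 and at 78.3, 86.6, 36.6 and 77.7 CPM in batch 2. The groups did not overlap, and the gene was called lower (log2 difference -1.44 ± 0.27, adjusted p = 0.0013, and 0.084 without wt/wt replicate 3). mt-Tm was also called lower there (-1.47 ± 0.43, adjusted p = 0.029), and this call was lost with DESeq2 (0.12) and without wt/wt replicate 1, ko/ko replicate 2 or ko/ko replicate 3 (0.15, 0.15 and 0.51). mt-Rnr1 in interneurons was at 54.0 and 54.9 CPM against 49.8, 43.3, 44.8 and 62.6 CPM, with a log2 difference of 0.05 ± 0.24.

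Whether the batch difference itself differed between interneurons and photoreceptors was tested as an interaction with the retina as a block. On the log2 scale it was smaller in interneurons for 10 of 29 genes tested, where 1.23% of all 15559 genes were called in this direction. In percentage points the batch difference in the share was 2.57 in interneurons and 2.47 in photoreceptors, so the smaller difference holds for ratios only. In photoreceptors mt-Co1 was at 1557 and 1075 CPM in batch 1 and at 294, 387, 572 and 428 CPM in batch 2. In interneurons it was at 3042 and 2553 CPM against 1397, 1563, 2271 and 1424 CPM. The retinas of batch 1 lay above those of batch 2 in both types, and the interaction was -0.84 ± 0.12 (adjusted p = 3.5e-09). The log2 difference of mt-Co1 in interneurons was 0.72 ± 0.19, and its call was lost without wt/wt replicate 1 (0.68, adjusted p = 0.15), wt/wt replicate 2 (0.70, 0.12), wt/wt replicate 3 (0.43, 0.50) or ko/ko replicate 2 (0.63, 0.083).

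mt-Co2 had an interaction of -1.08 ± 0.14, mt-Nd2 of -0.80 ± 0.14, mt-Nd5 of -0.74 ± 0.14, mt-Nd4 of -0.70 ± 0.12, mt-Cytb of -0.63 ± 0.12, mt-Co3 of -0.61 ± 0.12 and mt-Nd1 of -0.50 ± 0.12. The tRNA genes mt-Tw (-1.63 ± 0.31) and mt-Tt (-1.04 ± 0.26) completed the 10. mt-Atp6 (-0.48 ± 0.15, adjusted p = 0.056), mt-Rnr2 (-0.31 ± 0.15) and mt-Nd6 (-0.10 ± 0.27) did not pass, although mt-Atp6 passed with limma-voom (0.043), DESeq2 (0.021), RLE factors (0.0060) and no filter (0.0097), and when any single retina other than ko/ko replicate 2 was left out (at most 0.043). The value of mt-Nd6 changed sign without ko/ko replicate 3 (0.01) and in cells with at least 500 UMIs (0.05). The makeup of the interneuron cluster also moved with the batch. Of 13 interneuron markers, 5 were higher in batch 1, among them Gad1 and Tfap2b of amacrine cells, and 6 lower, among them Pcp2 and Scgn of bipolar cells. Of all genes in interneurons, 4.8% were called higher and 7.65% lower. Of 5 dissociation genes tested, 4 were lower, among them Egr1 and Fos. Of 6 glial markers tested in interneurons 3 were higher, among them Dkk3 (1.67) and Apoe (1.35), and of 14 photoreceptor markers 1 was higher, Pdc (0.77), and 2 lower, Arr3 (-0.68) and Gngt1 (-0.64). Of all genes 1.23% were called lower in the interaction, and no share of those called higher is given. In the interaction itself 2 of 8 glial markers were higher, Dkk3 (1.25) and Apoe (0.75), and 3 of 14 photoreceptor markers lower, among them Opn1sw (-0.74) and Pde6h (-0.70). Of 8 dissociation genes 3 were lower in the interaction, among them Egr1 (-5.14) and Fos (-4.03), and of 13 interneuron markers 1 was higher, Slc6a9 (1.48), and 4 lower, among them Isl1 (-1.45) and Pcp2 (-1.27). Their part in the interaction of the mitochondrial genes was not tested.

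**Figure D3:**
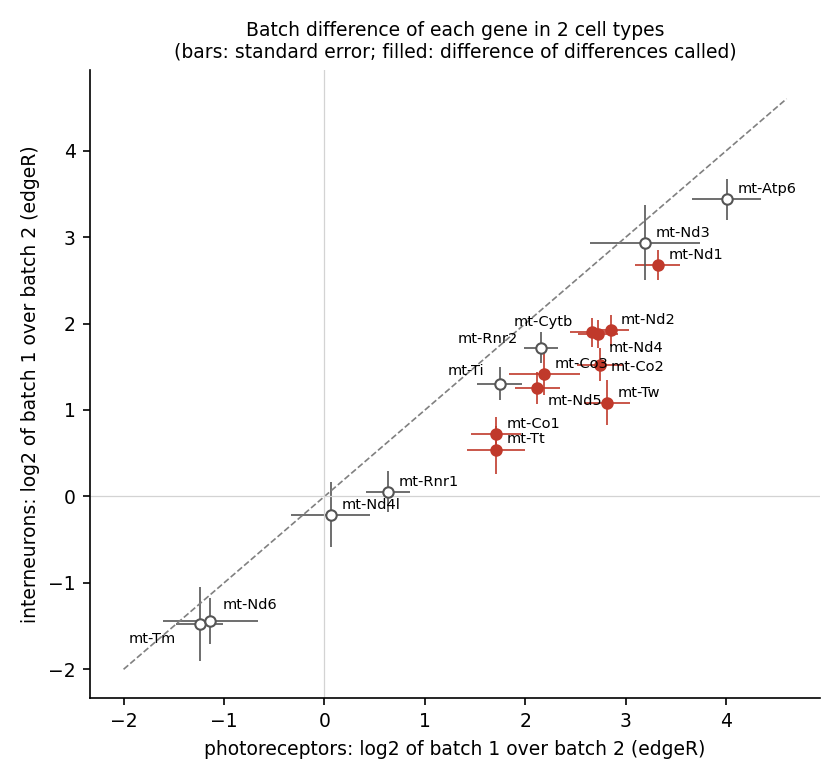
Log2 difference of batch 1 to batch 2 (edgeR, with SE) in photoreceptors on the x axis and in interneurons on the y axis, 1 point per mitochondrial gene tested in both, with the diagonal of equal differences. Filled red points passed the interaction test, for example mt-Co1 at -0.84, and lie below the diagonal.

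Several tRNA genes did not keep a fixed ratio to the gene directly before them. Per 100 UMIs of mt-Nd1, mt-Ti had 7.21 and 9.07 UMIs in batch 1 and 21.4, 21.3, 25.7 and 20.3 UMIs in batch 2. Per 100 UMIs of mt-Cytb, mt-Tt had 0.666 and 0.858 UMIs against 1.13, 1.56, 1.99 and 1.43. Both ratios were lower in batch 1 without overlap.
For mt-Tv after mt-Rnr1 they were 3.58 and 3.91 against 9.65 to 17.99, also without overlap. mt-Tw after mt-Nd2 was closer between the batches, with 5.15 and 5.13 against 5.29 to 7.55. mt-Tl1 after mt-Rnr2 went the other way in part, with 6.01 and 3.90 against 1.53, 3.05, 5.48 and 3.16, and its groups overlapped. Groups overlapped too for mt-Tg after mt-Co3 (0.520 and 0.597 against 0.472 to 1.01) and mt-Th after mt-Nd4 (0.148 and 0.236 against 0.0935 to 0.353). These ratios were not tested, and since the genes join, the counting can split reads across a junction between them.

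Copies of mitochondrial sequence in the nuclear genome carried UMIs too, and their number per UMI of the gene also moved with the batch. From which of the 2 these UMIs came was not tested. A run of pseudogenes on chromosome 1 matches mt-Co1, mt-Co2, mt-Atp6, mt-Co3, mt-Nd3, mt-Nd4l and mt-Nd4 at 99.7% to 100% identity, and less similar copies of mt-Nd2, mt-Co1 and mt-Co2 lie on chromosome 2 and one of mt-Nd5 on chromosome 13. Gm10925, the copy of mt-Atp6, had 21473 UMIs against 23315 on the gene, which is 0.938 and 0.788 copy UMIs per UMI of mt-Atp6 in batch 1 and 1.56, 1.33, 1.503 and 1.71 in batch 2. Gm28437, the copy of mt-Co3, had 0.916 and 0.737 per UMI of its gene against 1.45, 1.18, 1.37 and 1.26. For both pairs the ratios of the batches did not overlap.

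Gm28438, the copy of mt-Nd3 that differs from it by a single aligned base, had 0.846 and 0.691 UMIs per UMI of its gene in batch 1 and 1.08 to 1.64 in batch 2. The copy of mt-Nd4l, Gm10222, had 1.06 and 0.805 against 1.23 to 1.52. mt-Nd4 stands in contrast, since 502 bases of its 3′ end are outside Gm28439, and this copy had 0.0128 and 0.00883 UMIs per UMI of mt-Nd4 in batch 1 and 0.0229 to 0.0682 in batch 2. With reads this alike, the counts of a gene and its copy cannot be told apart by sequence alone, and each gene with a near-identical copy is uncertain to that extent.

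Adding the copies to their genes left the order of most genes in place. How reads that fit both a gene and its copy were counted was not examined, so these sums may miss some of them. The batch ratio became 10.6 for mt-Atp6 in place of 14.3, 7.36 for mt-Nd3 in place of 9.06, 4.83 for mt-Co2 in place of 5.65, 3.104 for mt-Co3 in place of 3.92 and 2.45 for mt-Co1 in place of 3.02. For mt-Nd4l it became 0.925 in place of 1.10. The mitochondrial share over all cells with the copies was 3.80% and 3.11% in batch 1 and 0.516%, 0.547%, 0.964% and 0.706% in batch 2. This count was added after seeing the data.

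**Figure D4:**
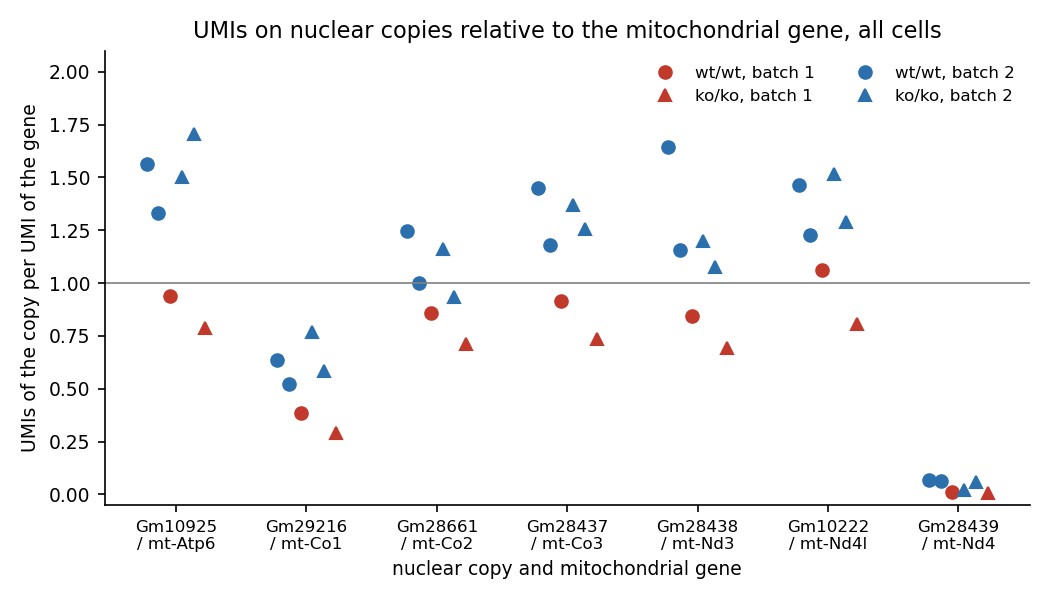
UMIs of a nuclear copy per UMI of its mitochondrial gene over all cells, 1 point per retina, with the line marking equal counts. For Gm10925 and mt-Atp6 the retinas of batch 1 lie at 0.938 and 0.788 and those of batch 2 at 1.33 to 1.71, while Gm28439 and mt-Nd4 lie near 0.

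Across cell types, interneurons had the highest mitochondrial share in each of the 6 retinas. The mean over retinas was 1.85% ± 1.34 (SD, n = 6) in interneurons, 1.32% ± 1.29 in photoreceptors, 0.752% ± 0.668 in mesenchymal cells, 0.745% ± 0.718 in glia and 0.550% ± 0.492 in RPE cells. The large SDs hold the batch difference, so types were compared within retinas. Interneurons exceeded photoreceptors by 0.528 percentage points and photoreceptors exceeded glia by 0.579 points, each in 6 of 6 retinas. With an exact two-sided sign-flip permutation test over the retinas, 8 of 10 pairs passed at an adjusted p of 0.0391. Glia and mesenchymal cells did not differ beyond their spread (difference -0.00694 points, adjusted p = 0.938), nor did glia and RPE cells (0.195 points, adjusted p = 0.0694). The authors' clustering used these counts too, which makes the tests no independent evidence, and with 5 retinas no pair can pass.

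Single genes were compared with photoreceptors in one fit over types with the retina as a block, in which 15 mitochondrial genes and 6290 genes in all were tested. In interneurons 8 genes were higher, where 33.1% of all genes were called higher, and none was lower. mt-Co1 had the largest difference, 1.41 ± 0.13 on the log2 scale (adjusted p = 2.0e-16), and took 7.52% to 17.8% of the mitochondrial UMIs of interneurons and 3.97% to 9.72% of those of photoreceptors over the retinas, and more in interneurons in 6 of 6. The next were mt-Ti (0.68 ± 0.11), mt-Co2 (0.61 ± 0.12) and mt-Co3 (0.51 ± 0.12). The nuclear copy of mt-Co1 on chromosome 1, Gm29216, differed by 1.43 ± 0.11. mt-Cytb differed by 0.21 ± 0.13 and did not pass (adjusted p = 0.17), and with limma-voom its difference was -0.13 (adjusted p = 0.0072).

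In glia 12 of the 15 genes were lower than in photoreceptors, where 37% of all genes were. mt-Co3 (-1.43 ± 0.14), mt-Co1 (-1.31 ± 0.15) and mt-Cytb (-1.27 ± 0.14) fell, and mt-Nd1 fell by 0.60 ± 0.15. mt-Nd2 was at 1330 and 916 CPM in glia of batch 1 and at 328, 234, 288 and 365 CPM in those of batch 2. In photoreceptors it was at 1446 and 1117 CPM and at 189, 143, 180 and 215 CPM, so glia were higher in batch 2 and lower in batch 1. Its log2 difference of 0.17 ± 0.14 did not pass and changed sign with limma-voom (-0.16), without the filter (-0.09) and in cells with at least 500 UMIs (-0.08), and it passed as higher without ko/ko replicate 3 (0.35, adjusted p = 0.034). It took 7.32% of the glial mitochondrial UMIs pooled over the retinas, most of which come from batch 1. mt-Rnr2 differed by -0.11 ± 0.13 and passed as lower without the filter (-0.35, adjusted p = 0.041) and in cells with at least 500 UMIs (-0.29, adjusted p = 0.047).

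Mesenchymal cells had 10 genes lower and 2 higher than photoreceptors, where 33.2% and 30.9% of all genes were called. The 2 higher genes were the rRNAs. mt-Rnr1 was at 199 and 89.9 CPM in mesenchymal cells of batch 1 and at 73.6, 85.4, 12.8 and 78.9 CPM in those of batch 2, against 49.5 and 45.3 CPM and 33.0, 25.2, 25.9 and 40.1 CPM in photoreceptors. It was higher in 5 of 6 retinas, the exception being ko/ko replicate 1, and its log2 difference was 1.15 ± 0.26 (adjusted p = 0.00011). Mesenchymal cells held 77876 to 114066 UMIs per retina in all, so these levels of mt-Rnr1 rest on few UMIs. mt-Rnr2 (0.37 ± 0.16, adjusted p = 0.041) lost its call with limma-voom (0.14), DESeq2 (0.0848), cells with at least 500 UMIs (0.053) and 5 of the 6 retinas left out in turn (0.0855 to 0.33, each retina but ko/ko replicate 3), and was at -0.07 without the filter. mt-Cytb fell by 1.21 ± 0.15, while mt-Co1 differed by -0.12 ± 0.15 and was called lower only without the filter (-0.53) or in cells with at least 500 UMIs (-0.32).

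In RPE cells 13 of 15 genes were lower than in photoreceptors, where 37.7% of all genes were and the median of all genes was -1.03. mt-Cytb fell by 1.64 ± 0.17 and mt-Co3 by 1.41 ± 0.20. No UMI of mt-Rnr1 was found among the 151269 UMIs of RPE cells, which allows up to 19.8 CPM over the group. Its mean level over the retinas in photoreceptors was 36.5 CPM, 1.84 times that limit. The limit pools the retinas and covers counting error only.

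**Figure D5:**
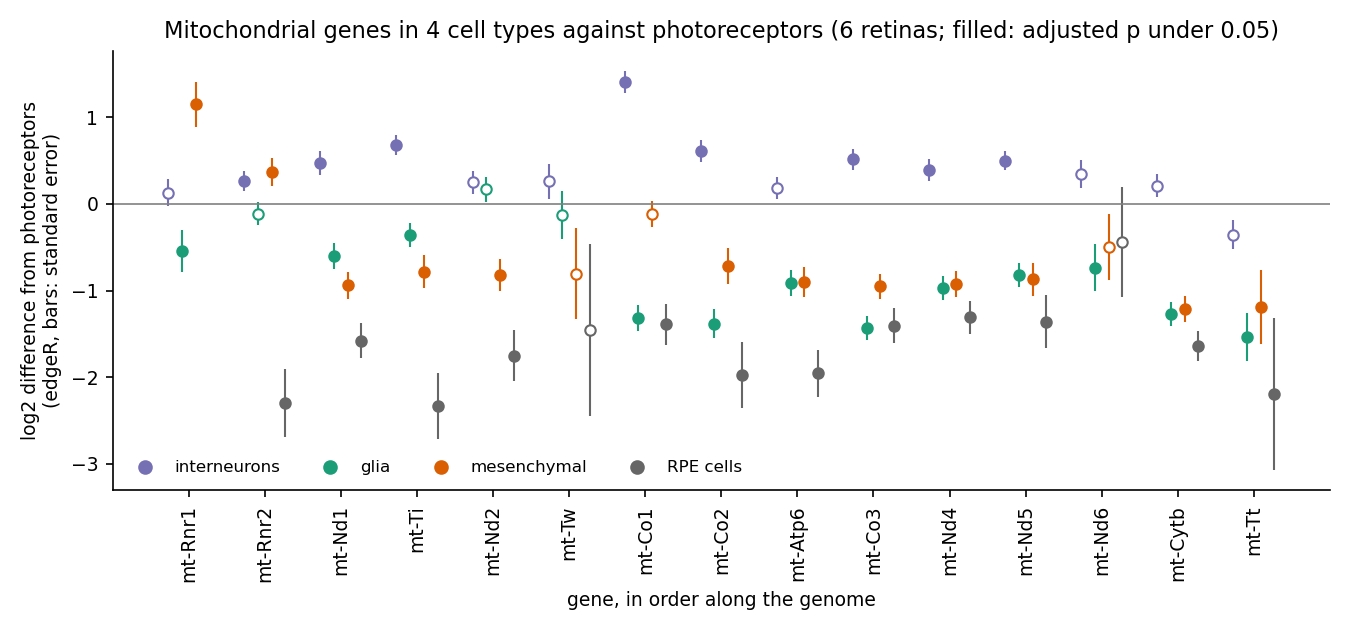
Log2 difference from photoreceptors (edgeR, with SE, 6 retinas) of the 15 mitochondrial genes tested, in genome order, for interneurons, glia, mesenchymal and RPE cells. Filled points passed the test. mt-Rnr1 in RPE cells, with 0 UMIs, is not drawn. mt-Co1 in interneurons stands highest at 1.41, and mt-Rnr1 in mesenchymal cells at 1.15, which rests on few UMIs, is the next.

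Between genotypes, no mitochondrial gene passed the test. In interneurons mt-Nd3 did not reach the filter on low counts of this comparison and was not among the genes tested. The share over all cells was 1.35% ± 1.61 (SD, n = 3) in wt/wt and 1.35% ± 1.22 (n = 3) in ko/ko retinas, a difference of -0.00599 percentage points (exact two-sided permutation test, p = 1, where 3 against 3 cannot go below 0.10). In photoreceptors the difference was -0.0178 points, in interneurons 0.0615, in glia -0.0608, in mesenchymal cells -0.0810 and in RPE cells 0.0385 points, each smaller than the spread between retinas, which holds the batch difference. Within batch 2, with 2 retinas per genotype, both ko/ko retinas lay above both wt/wt retinas over all cells and in photoreceptors, interneurons and glia, and the genotypes overlapped in mesenchymal and RPE cells. Malat1 took 11.3% and 14.2% of the UMIs in these ko/ko retinas and 16.4% and 16.1% in these wt/wt retinas, and its part in the result was not tested. In batch 2 the ratio of ko/ko to wt/wt was 1.53 over all cells, 1.63 in photoreceptors, 1.31 in interneurons and 1.48 in glia. Within batch 1, with 1 retina per genotype, it was 0.854, 0.836, 0.907 and 0.781.

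The ratios therefore pointed in opposite directions in the 2 batches, which was not tested. edgeR called 0 of 27 mitochondrial genes over all cells, 0 of 23 in photoreceptors, 0 of 17 in interneurons, 0 of 11 in glia, 0 of 9 in mesenchymal cells and 0 of 4 in RPE cells, and in each of the 6 sets 0 of all genes (0%) were called. At an unadjusted p under 0.05 it found 0 mitochondrial genes in any set, against 11 to 150 genes in all. DESeq2 and limma-voom also called 0 mitochondrial genes in each set. With batch as a covariate 3 mitochondrial genes over all cells, 3 in photoreceptors and 1 in interneurons had an unadjusted p under 0.05, where 2.74%, 2.1% and 2.78% of all genes did. With batch as a covariate in limma-voom 4, 1 and 1 did, against 3.14%, 2.24% and 3.87%. No mitochondrial gene passed the adjusted threshold in either fit. Of all genes 21 of 1717 in mesenchymal cells and 3 of 308 in RPE cells then passed, and 35 and 5 in limma-voom.

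Over all cells the log2 differences of ko/ko to wt/wt ranged from -1.02 for mt-Nd3 to 0.76 for mt-Th, with SEs of 1.11 and 0.91. mt-Nd6 differed by -0.50 ± 0.53 and mt-Atp8 by -0.52 ± 0.50.

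Among single cells the mitochondrial share was broadly spread. Photoreceptors without any mitochondrial UMI made up 9.95% and 12.4% of those in batch 1 and 31.6% to 52.1% of those in batch 2. After each cell was thinned to 250 UMIs, with shallower cells left out, 94.8% and 90.6% of photoreceptors in batch 1 had a mitochondrial UMI and 41.5% to 62.6% in batch 2. The order of the batches was thus the same at equal depth. Cells with more than 10% mitochondrial UMIs numbered 287 (4.09%) and 228 (2.47%) in batch 1, and 5 in ko/ko replicate 1. They numbered 0 in the other 3 retinas. In batch 1, 5 of these cells (wt/wt) and 4 (ko/ko) were above 50%.

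Cells above 10% held 11.4% and 7.73% of the mitochondrial UMIs of their retinas, and those above 5% held 38.9% and 29.6%. The median share per photoreceptor was 2.13% and 1.79% in batch 1 and 0% to 0.434% in batch 2, so the batches also differed in the middle of the distribution.

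Photoreceptors with less Malat1 had a higher mitochondrial share. When the photoreceptors of each retina were ordered by their Malat1 share, the third with the least had a mitochondrial share of 4.42% and 3.65% in batch 1 and 0.554%, 0.611%, 1.05% and 0.826% in batch 2. The third with the most had 1.79% and 1.41% in batch 1 and 0.165%, 0.194%, 0.352% and 0.243% in batch 2. The ratio was 2.47 to 3.40 in the 6 retinas, and all 6 pointed the same way.
In interneurons the same ratio was 0.938 to 1.23. The cells share their library, both shares have the same denominator, and the third with the least Malat1 was deeper (median 453 to 722 UMIs against 221 to 366), so these values are a description.

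For nuclear genes that serve the mitochondrion, the median log2 differences between the batches lay between -0.15 and 0.42 in the 7 lists examined, beside 1.58 for the mitochondrial genes. Over all cells, 4 of the 37 nuclear subunits of complex I rose in batch 1, among them Ndufc2 (0.68 ± 0.13) and Ndufb5 (0.66 ± 0.14), and none fell, with a median log2 difference of 0.31. Of complex IV, 3 of 15 rose, among them Cox7c (0.81 ± 0.22) and Cox8a (0.63 ± 0.15), with a median of 0.42. Of complex V, 4 of 16 rose, among them Atp5g3 (0.94 ± 0.15) and Atp5e (0.72 ± 0.17), and Atp5g1 fell (-0.72 ± 0.20), with a median of 0.38. None of the 9 complex III genes passed, and their median was 0.26. These medians stand beside -0.03 over all genes, and the counts beside the 8.57% of all genes called higher and 6.62% called lower in batch 1. The counts were also taken within types, and a difference between types was not tested for these lists. In photoreceptors 2 of 37 complex I, 0 of 14 complex IV and 2 of 16 complex V subunits rose and none fell. Of all genes there, 2.39% were called higher and 3.11% lower. In interneurons none of 37 complex I subunits rose and 2 fell, Ndufb4 (-1.29) and Ndufab1 (-0.87), and of 16 complex V subunits 1 rose and 2 fell. Of all genes in interneurons, 4.8% were called higher and 7.65% lower.

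Of the 78 genes listed as mitochondrial ribosomal proteins, 0 rose and 1 fell, Mrpl9 (-1.22 ± 0.16), and the median was 0.02. Of 18 genes of the nucleoid and of replication and transcription of mitochondrial DNA, 0 rose and 2 fell, which were the termination factor gene Mterf1a (-1.13 ± 0.24) and the helicase gene Twnk (-0.72 ± 0.19), with a median of -0.15. Of 21 genes listed for processing and stability of mitochondrial RNA, 0 rose and 1 fell, Ptcd3 (-1.62 ± 0.39), with a median of -0.04. The protein of Ptcd3 is a part of the small mitochondrial ribosomal subunit, and the ribosomal list does not hold it. Summed CPM in batch 1 were 1.24, 1.20, 1.36 and 1.31 times those in batch 2 for the nuclear subunits of complexes I, III, IV and V, and 1.02, 1.00 and 0.931 times for the ribosomal proteins, the RNA processing genes and the nucleoid genes. The few genes that fell in these lists stand beside the same 6.62%. Between genotypes none of these lists had a called gene.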

How the data were processed

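The authors aligned the reads to GRCm38/mm10 with Cell Ranger 3.1.0, using exonic reads, and deposited raw UMI counts per gene and cell, not normalized, with the retina, batch and cell type of each cell. The types are their Louvain clusters after CCA integration over batch. No cell filter is given in the sources used here, no doublet caller was run, and barcodes shared between libraries were not counted, because the cell names hold no barcode. Genes were named with GENCODE M21, and 629 cells without a type entered only the sums over all cells. All columns belonged to a retina. Counts were summed per retina and type and tested with edgeR 4.0.16 (TMM, filterByExpr, quasi-likelihood, Benjamini-Hochberg over all genes tested, adjusted p under 0.05) in R 4.3.3. Genotype was the only term between genotypes, genotype and batch were the terms between batches, and the retina was a block between types. The study's methods use limma-voom and name no covariate. limma 3.58.1 and DESeq2 1.42.0 were alternatives, beside RLE factors, no filter on low counts, cells with at least 500 UMIs, batch terms and each retina left out. Shares were tested over retinas with exact permutation tests (scipy 1.17.1). CPM are UMIs scaled to a total of 1000000 per sum. Depth was 3463728 to 6563762 UMIs per retina, and Wilson 95% intervals of the shares over all cells were at most 0.0291 percentage points wide and cover counting error only. Nuclear copies were found with BLAST+ 2.17.0 at 95% identity or more. The fits were tested on simulated data with a dispersion of 0.05. Log2 changes of 1 and 2 were recovered for 24.5% and 96.9% of changed genes between genotypes over all cells. Between batches over all cells it was 31.3% and 95.0%, in interneurons against photoreceptors 94% and 100%, and in the interaction 0% and 40.1%. A gene that did not pass may therefore still differ by a log2 of 1. The 13 protein-coding and 2 rRNA genes, and tRNA genes with at least 50 UMIs, were named, and of a nuclear list up to 2 called genes per direction. The members and lists were chosen with earlier results of these data known.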

Additional observations from a re-analysis of the deposited data

Results flagged for a closer look

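Among the 34 groups of 4 retinas of batch 2 that were examined, 4 had 1 retina far from the other 3, where chance alone sets about 1 in 20 apart. In ko/ko replicate 1, mt-Td (5.49 CPM) and mt-Atp6 (214 CPM) were highest and mt-Nd6 (15.9 CPM) was lowest. In wt/wt replicate 2, mt-Atp8 (2.49 CPM) was lowest. It had 10 UMIs there and 13, 12 and 15 in wt/wt replicate 1, ko/ko replicate 1 and ko/ko replicate 2. mt-Td had 19 UMIs in ko/ko replicate 1 and 9 or 10 in the other retinas of batch 2. Both genes thus rest on few UMIs, and their retinas apart may reflect counting error.

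On the log2 scale the batch difference was smaller in interneurons than in photoreceptors for 10 genes by the interaction test, where 1.23% of all genes were called. The ratio of ko/ko to wt/wt share was above 1 in batch 2 and below 1 in batch 1 over all cells (1.53 and 0.854), in photoreceptors (1.63 and 0.836), in interneurons (1.31 and 0.907) and in glia (1.48 and 0.781), and this difference between batches was not tested.

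Cells without a type, which entered no comparison between types, had a higher mitochondrial share than the typed cells of the same retina in ko/ko replicate 1 (0.851% against 0.717%) and in ko/ko replicate 2 (0.676% against 0.572%). The share was also higher in wt/wt replicates 1 and 3 (0.442% against 0.404% and 3.29% against 3.22%) and lower in wt/wt replicate 2 and ko/ko replicate 3 (0.384% against 0.438% and 2.71% against 2.75%). No difference between untyped and typed cells was tested over cells or retinas.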

How the results depend on the processing

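The batch difference in the share kept its direction under every alternative run. Counts of genes called between genotypes (0), between types and in the interaction stayed within 1.5 times of the values reported. The genotype difference in the share is near 0 and changed sign with Malat1 left out of the total (0.0102 points over all cells), in cells with at least 500 UMIs (0.0184 over all cells, 0.0139 in photoreceptors) and as the median over cells (0.0285 and 0.0756). With each retina left out it ranged from -0.707 to 0.926 over all cells. The range was -0.713 to 0.935 for photoreceptors, -0.694 to 1.02 for interneurons, -0.428 to 0.480 for glia, -0.444 to 0.406 for mesenchymal and -0.266 to 0.367 for RPE cells, since leaving out a retina of batch 1 leaves its genotype with batch 2 alone. The same-numbered retinas correlated at 0.0728, 0.535 and 0.648 in their deviations, so the replicate numbers were not taken as pairs. With the replicate block 0 mitochondrial genes were called in any set.

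Of the type differences, glia minus mesenchymal was 0.0203 with Malat1 left out and -0.0820 (now passing) in cells with at least 500 UMIs, and glia minus RPE was 0.253 (now passing) with Malat1 left out. The medians over cells of interneurons lay above those of each other type in every retina. Fewer pairs reached the smallest possible p, which raised the adjusted p of the pairs that did, every pair with interneurons among them. Photoreceptors did not keep their order against the 3 smaller types. In wt/wt replicate 1 their median was 0%, below glia (0.217%), mesenchymal (0.251%) and RPE cells (0.260%). Mesenchymal cells lay below RPE cells there, and above photoreceptors in wt/wt replicate 2 (0.221% against 0.166%) and ko/ko replicate 2 (0.299% against 0.292%). As medians over cells, 8 differences no longer passed. These were photoreceptors minus interneurons (-0.869), glia (0.214), mesenchymal (0.120) and RPE (0.358), interneurons minus glia (1.08), mesenchymal (0.989) and RPE (1.23), and mesenchymal minus RPE (0.238). In batch 2 alone, where 4 retinas cannot pass, they were -0.494, 0.209, 0.173, 0.266, 0.703, 0.667, 0.760 and 0.0934 in the same order. With 1 retina left out, which cannot pass either, they ranged from -0.548 to -0.496, 0.418 to 0.672, 0.392 to 0.678, 0.519 to 0.908, 0.939 to 1.21, 0.925 to 1.22, 1.05 to 1.45 and 0.127 to 0.231, and glia minus mesenchymal from -0.0265 to 0.00600.

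Mitochondrial genes called between batches numbered 9 to 21 over all cells and 8 to 21 in photoreceptors with 1 retina left out, and 0 in RPE cells with no filter. The 9 over all cells stand beside 0.891% of all genes, and the 8 in photoreceptors beside 0.311% and 0.139%. No such share is given beside the upper ends, which are a description. Single values that changed sign were mt-Tc between batches (-0.13 in cells with at least 500 UMIs), in interneurons with limma-voom mt-Atp6 (-0.0450), mt-Cytb (-0.132) and mt-Nd2 (-0.0442), in glia mt-Nd2 (-0.155 with limma-voom, -0.0862 with no filter and -0.0841 in cells with at least 500 UMIs), in mesenchymal cells mt-Rnr2 with no filter (-0.0706), in RPE cells with limma-voom mt-Nd6 (0.20) and mt-Tw (0.0600), and mt-Nd6 in the interaction in cells with at least 500 UMIs (0.0516). With 1 retina left out, mt-Atp8 ranged from -1.01 to 1.10, mt-Nd4l from -0.36 to 0.43, mt-Tc from -0.39 to 0.57, mt-Rnr1 in interneurons from -0.0545 to 0.23 and mt-Nd6 in the interaction from -0.41 to 0.00961. The causes were not tested. Depth limits RPE cells most, with 39 to 427 mitochondrial UMIs per retina.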

Other observations

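The 629 cells without a type had mitochondrial shares of 0.442%, 0.384% and 3.29% in wt/wt replicates 1, 2 and 3 and of 0.851%, 0.676% and 2.71% in ko/ko replicates 1, 2 and 3. They thus followed the batch of their retina.

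The share of mt-Co1 among the mitochondrial UMIs was 9.54% for the mesenchymal type, 6.20% for RPE cells and 3.95% for glia, beside 5.21% in photoreceptors, with UMIs pooled over the retinas. These pooled shares mix the batches. In batch 1 the share was 7.55% and 7.77% for the mesenchymal type, 4.68% and 3.98% for RPE cells, 3.82% and 3.43% for glia and 4.81% and 3.97% for photoreceptors. In batch 2 it was 8.46% to 17.5%, 7.41% to 18.5%, 4.22% to 6.94% and 7.90% to 9.72% in the same order.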
